A study of Homo sapiens with 4 samples.

Results

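ISG15 is a small ubiquitin-like protein that is joined to other proteins in a process named ISGylation. The 7 genes described here are ISG15 and the main enzymes of that process, and they were found by name in a table of 47251 genes. They are the modifier ISG15, its activating enzyme UBA7 (E1), its conjugating enzyme UBE2L6 (E2, also known as UbcH8), the ligases HERC5, HERC6 and TRIM25 (E3), and USP18, the protease that removes ISG15 again. Each name matched 1 row of the table, and all 7 were found.

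RNA of AGS cells, a line established from a human gastric adenocarcinoma, was sequenced in 4 libraries. The sh-MFAP2 libraries (replicates 1 and 2) came from cells infected with a lentivirus that carries a short hairpin RNA against MFAP2, a protein of the extracellular matrix. The control libraries (replicates 1 and 2) came from cells infected with a scrambled hairpin. Cells of both groups carried a lentiviral vector and had been selected with puromycin, and knockdown was done with 1 hairpin. Nothing in the labels says that the replicates were separate cultures, so that p-values measure the spread between these libraries, which may be technical.

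In human cells ISG15 is one of the genes most readily induced by type I and type III interferons. These cytokines bind receptors that signal through JAK1 and TYK2 to the complex ISGF3, which binds the interferon-stimulated response element in promoters. Most of the ISGylation enzymes are interferon-induced as well, so that modifier and machinery usually appear together. ISG15 is activated by UBA7, passed to UBE2L6 and joined to lysines of target proteins, in human cells mostly by HERC5. USP18 also restrains interferon signalling at the receptor, apart from its protease activity.

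The core of the response element, searched as GAAANNGAAA on both strands, was present in the promoters of ISG15 and HERC5. Promoters of 300 bases around RefSeq starts (GRCh38.p14) were held for 5 of the 7 genes, and those of UBA7 and USP18 were not analysed here. Stretches are shown for the genes with a match. Of the levels given below, that of ISG15 was the highest and that of HERC5 was near the lowest. Capitals mark the letters covered by matches.

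ISG15 (chr1:1013322-1013421, plus strand, bases -175 to -76 from the start): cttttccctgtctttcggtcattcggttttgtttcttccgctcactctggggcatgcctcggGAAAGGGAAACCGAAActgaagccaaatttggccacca
HERC5 (chr4:88456944-88457060, plus strand, bases -175 to -59 from the start): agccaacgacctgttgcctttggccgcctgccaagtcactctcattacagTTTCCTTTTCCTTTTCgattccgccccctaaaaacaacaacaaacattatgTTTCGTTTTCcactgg

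In ISG15, 2 overlapping matches lay on the plus strand, at -113 to -104 and at -107 to -98. The ISG15 window lies around a start at 1013497, and the region around the annotated start at 1001138 was not searched. In HERC5, 3 matches lay on the minus strand, 2 of them overlapping at -125 to -116 and at -119 to -110, and the other at -74 to -65. The letters were not found in the windows of UBE2L6 (2 starts), HERC6 or TRIM25. Of all 35116 promoters in the RefSeq table, 1255 (3.57%) held the core, and of 60 promoters of other interferon-stimulated genes, 38 (63.3%) held it. A match describes the sequence only.

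The deposited values were taken as FPKM, fragments scaled by transcript length and library depth, and levels are given on that scale. The steps between low values implied 54772327 to 74962283 reads per library. Read numbers given below follow from these steps and are inferred. MFAP2 itself was at 0 in each sh-MFAP2 library and at 0.0116 and 0.0138 FPKM in the controls (2 and 3 inferred reads), too low to check the labels. The epithelial markers EPCAM, KRT8, KRT18 and KRT19 were between 193 and 803 FPKM in every library. CLDN4, another epithelial marker, was at 47.1 FPKM in sh-MFAP2 replicate 1 and at no more than 0.551 FPKM elsewhere. Of 10 immune and stromal markers, 7 (PTPRC, CD3E, CD14, CLEC4C, PECAM1, COL3A1 and DCN) were below 0.06 FPKM in every library. The summed level of all 10 was 91.1 and 585 FPKM in sh-MFAP2 libraries against 102 and 381 FPKM in the controls, nearly all of it LYZ, which encodes lysozyme. CD68 was at 3.13 and 3.12 FPKM in sh-MFAP2 libraries against 7.85 and 7.20 FPKM, and COL1A1 at 2.27 and 2.07 FPKM against 4.36 and 4.92 FPKM, lower where ISG15 was higher, and the part of these markers in the results was not tested.

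The members spanned a wide range of levels. By the mean of the 4 libraries, ISG15 came first at 433 FPKM and was above every other member in every library. USP18 (15.2 FPKM), UBE2L6 (12.2 FPKM) and TRIM25 (9.84 FPKM) followed, and their ranges over libraries overlapped. UBA7 was at 0.413 FPKM, below these in every library. HERC5 (0.0285 FPKM) and HERC6 (0.0115 FPKM) came last, with ranges that overlapped. The modifier was therefore abundant in both groups, while the ligase HERC5 was nearly undetected.

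**Figure D1:**
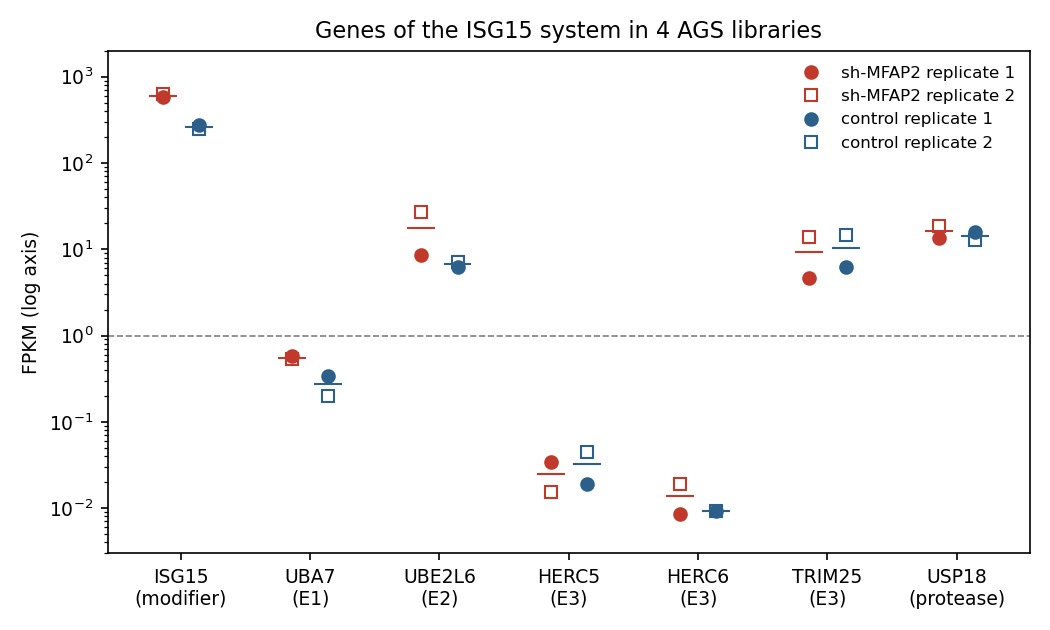
FPKM of the 7 genes (log axis) in the 2 sh-MFAP2 libraries (red) and the 2 control libraries (blue), with filled circles for replicate 1, open squares for replicate 2, short lines for the group means and a dashed line at 1 FPKM. ISG15 stood above every other gene in every library, its groups did not overlap, and HERC5 and HERC6 stayed below 0.05 FPKM.

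The question of the comparison is which mRNAs differ after knockdown of MFAP2. The 9873 genes whose mean reached 1 FPKM were tested on log2(FPKM + 1) with limma, and a gene was called at p under 0.01 and a Benjamini-Hochberg adjusted p under 0.05. By that rule 27 of 9873 genes (0.273%) were called, 15 of them higher and 12 lower in sh-MFAP2 libraries. Of the 7 members, 4 had a mean of at least 1 FPKM (ISG15, UBE2L6, USP18 and TRIM25), and none of them was called. At an unadjusted p under 0.05, 1 member (ISG15) was higher, where 3.89% of all genes tested were higher at that level. Both sh-MFAP2 libraries lay above both controls for 2 of the 4 members tested, against 17.5% of all genes tested. With UBA7, HERC5 and HERC6 added in the fit without the filter, this was so for 3 of 7 members (ISG15, UBA7 and UBE2L6), against 16.0% of 23806 genes. The median log2 fold change of the 4 members was 0.62, beside -0.05 over all genes tested. It was 0.13 without sh-MFAP2 replicate 2 and 0.89 without sh-MFAP2 replicate 1. The members were chosen with earlier results of these data known, so these counts and medians are no independent evidence of a direction. With so few genes, the shares over all genes stand beside the counts as a description only. With 2 libraries against 2, the smallest two-sided p that an exact permutation test allows for 1 gene is 0.333.

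ISG15 (ENSG00000187608, chromosome 1, 1001138 to 1014540 on the plus strand of GRCh38, GENCODE 29) was at 577 and 631 FPKM in sh-MFAP2 libraries and at 277 and 247 FPKM in the controls. Both sh-MFAP2 libraries thus stood far above both controls, and the replicates of a group lay close together. The ratio of the group means was 2.31, with 604 ± 38.0 FPKM against 262 ± 20.9 FPKM (mean ± SD, n = 2 each). The log2 fold change was 1.20 (SE 0.127, 95% interval 0.84 to 1.57), with an unadjusted p of 0.000923 and an adjusted p of 0.137 by limma. The gene thus missed the call after adjustment over all genes. In order of level, ISG15 was number 20 and number 21 of the 47251 genes in the sh-MFAP2 libraries and number 81 and number 87 in the controls. These values rest on 33054, 32562, 15425 and 17443 inferred reads, so that counting error is small beside the spread between libraries.

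The reads of ISG15 were divided between transcripts in a way that did not follow the groups. ISG15-201 (ENST00000379389) has 2 exons, at 1013423 to 1013576 and at 1013984 to 1014540. ISG15-203 (ENST00000624697) starts at 1001138, has 3 exons, and shares with ISG15-201 the last exon of 557 bases. ISG15-201 took 13.1% and 99.99% of the gene's reads in sh-MFAP2 replicates 1 and 2, and 99.98% and 15.4% in control replicates 1 and 2. In FPKM of the transcript table, ISG15-201 was at 100, 836, 366 and 50.5 in the same order. ISG15-203 was at 600, 0, 0.0649 and 250 FPKM. Each library thus gave most of the reads to one of the transcripts, ISG15-203 in sh-MFAP2 replicate 1 and control replicate 2, and ISG15-201 in the others. The log2 fold change of ISG15-201 was 1.08 with an SE of 1.53, and that of ISG15-203 was 0.59 with an SE of 4.46. The sum of the transcripts kept a log2 fold change of 1.20 (limma, adjusted p = 0.233). The statement on ISG15 therefore holds for the gene as a whole, and no statement on the use of its starts is made.

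**Figure D2:**
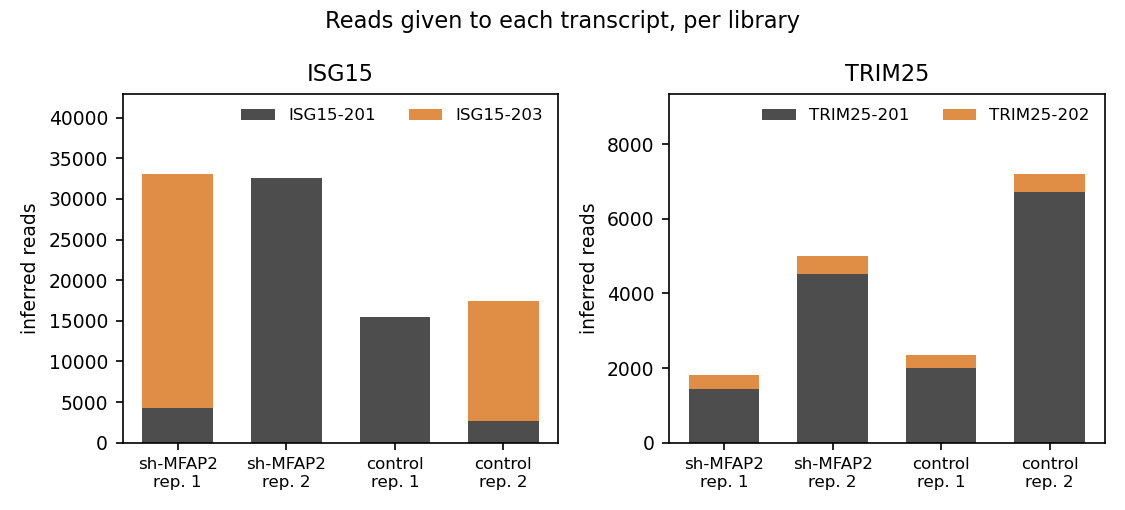
Inferred reads given to the main transcripts of ISG15 (left) and TRIM25 (right) in each library, stacked by transcript. The height for ISG15 followed the groups while its division did not, and TRIM25-201 was high in the libraries numbered 2 of both groups.

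UBA7, the E1 that activates ISG15 (ENSG00000182179, chromosome 3, 49805207 to 49813946 on the minus strand), was at 0.573 and 0.537 FPKM in sh-MFAP2 libraries and at 0.342 and 0.201 FPKM in the controls. The groups did not overlap, and the ratio of the means was 2.04. The values stood on about 158, 134, 92 and 68.5 inferred reads. In the fit without the filter, the log2 fold change was 0.29 (SE 0.0812, 95% interval 0.05 to 0.53, limma adjusted p = 0.496). This scale compresses low values, and with a pseudocount of 0.1 the log2 fold change was 0.84 (adjusted p = 0.596). The transcript UBA7-201 (ENST00000333486, 24 exons) took 81.6% to 91.4% of the gene's reads, and most others listed were annotated as retained introns.

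UBE2L6, the E2 (ENSG00000156587, chromosome 11, 57551656 to 57568284 on the minus strand), was at 8.66 and 26.8 FPKM in sh-MFAP2 libraries and at 6.27 and 7.17 FPKM in the controls. The groups did not overlap, but the difference rested mostly on sh-MFAP2 replicate 2. The log2 fold change was 1.09 (SE 0.566, 95% interval -0.52 to 2.70, limma adjusted p = 0.491). It was 0.33 without sh-MFAP2 replicate 2 and 1.85 without sh-MFAP2 replicate 1. UBE2L6-201 (ENST00000287156) carried 89.5% to 98.3% of the reads, and UBE2L6-202 (ENST00000340573) carried 1.60% to 10.4%. UBE2L3, the closely related E2 of ubiquitin, was also highest in that library, at 31.2 and 63.4 FPKM in sh-MFAP2 libraries and at 32.6 and 35.0 FPKM in the controls.

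HERC5, the main ISG15 ligase of human cells (ENSG00000138646, chromosome 4, 88457117 to 88506163 on the plus strand), was at 0.0345 and 0.0154 FPKM in sh-MFAP2 libraries and at 0.0191 and 0.0449 FPKM in the controls. These values stand for about 10, 4, 5.4 and 16 inferred reads. HERC6, its neighbour and relative (ENSG00000138642, chromosome 4, 88378739 to 88443111 on the plus strand), was at 0.00852 and 0.0190 FPKM against 0.00916 and 0.00925 FPKM, or about 3, 6, 3.1 and 4 reads. The groups overlapped for both genes. Values this near a floor of 3 reads give no fold change, and a difference between groups was not detectable at this depth. HERC5 thus stood near 0 in libraries where ISG15 was among the most abundant mRNAs. Both promoters hold the core shown above, and its part in these levels was not tested. The transcripts of HERC5 and HERC6 align to each other with 74.9% identity over 1851 bases of HERC5.

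TRIM25, a ligase of both ubiquitin and ISG15 (ENSG00000121060, chromosome 17, 56836387 to 56914080 on the minus strand), was at 4.60 and 14.0 FPKM in sh-MFAP2 libraries and at 6.15 and 14.6 FPKM in the controls. The libraries numbered 2 were high in both groups, and the groups overlapped. The log2 fold change was -0.21 (SE 0.667, 95% interval -2.11 to 1.69, limma adjusted p = 0.904), and its sign changed when sh-MFAP2 replicate 1 (0.50) or control replicate 2 (0.36) was left out. The pattern was largest in 1 transcript. TRIM25-201 (ENST00000316881, 5734 bases) was at 4.10, 14.4, 5.93 and 15.7 FPKM, whereas TRIM25-202 (ENST00000537230, 2906 bases) was at 2.11, 3.14, 1.91 and 2.15 FPKM, with sh-MFAP2 replicates 1 and 2 before control replicates 1 and 2. LYZ was also high in the libraries numbered 2 of both groups, at 85.5, 579, 89.3 and 369 FPKM, and its part in the result was not tested. The annotated span of TRIM25 overlaps that of DGKE, which is on the other strand. The listed TRIM25 transcripts start at 56887909 or higher and lie outside that overlap. TRIM25-201 aligned to AC015912.1 on the opposite strand over 466 bases with 100% identity. Since no strand setting is given, reads from that stretch cannot be told apart.

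USP18, the ISG15 protease (ENSG00000184979, chromosome 22, 18149899 to 18177397 on the plus strand), was at 13.5 and 18.8 FPKM in sh-MFAP2 libraries and at 16.0 and 12.7 FPKM in the controls. The groups overlapped. The log2 fold change was 0.15 (SE 0.221, 95% interval -0.48 to 0.78, limma adjusted p = 0.777), with the sign changed without sh-MFAP2 replicate 2 (-0.0706) or control replicate 2 (-0.00425). A change of the size seen for ISG15 lies outside this interval. The annotated transcript, USP18-201, aligned to the nearby copy USP41 over 917 of its 2129 bases with 98.7% identity, so that reads of these genes could be exchanged. USP41 was at 0.640, 0.665, 0.766 and 0.446 FPKM, far below USP18.

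**Figure D3:**
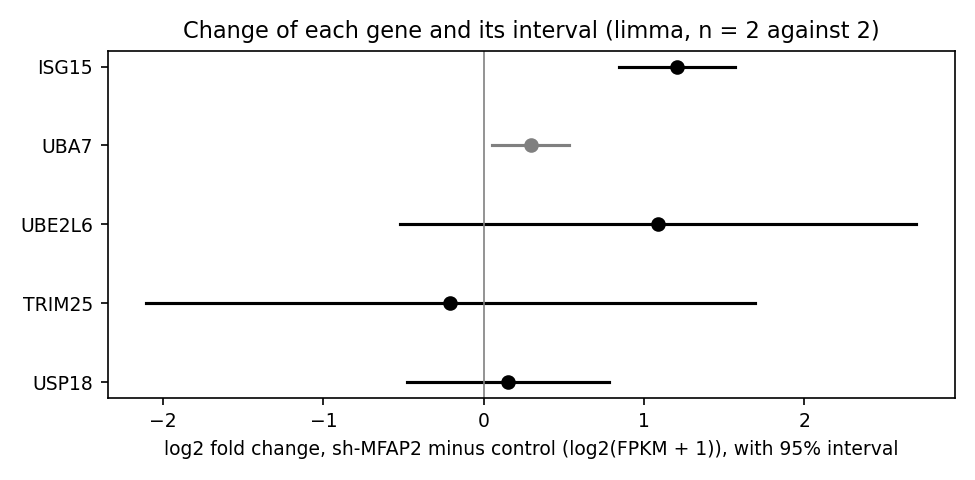
Log2 fold change of 5 genes, sh-MFAP2 minus control on log2(FPKM + 1), as points with 95% intervals from limma. UBA7 (grey) comes from the fit without the filter and the others from the fit of 9873 genes, and only the intervals of ISG15 and UBA7 lie above 0.

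ISG15 was set against its own enzymes by the ratio of FPKM values within each library, as a description. ISG15 was 1008 and 1176 times UBA7 in the sh-MFAP2 libraries and 809 and 1229 times UBA7 in the controls, so that these ranges overlapped. ISG15 over USP18 was 42.8 and 33.6 in the sh-MFAP2 libraries and 17.3 and 19.5 in the controls, without overlap. ISG15 over UBE2L6 was 66.6 and 23.6 against 44.1 and 34.5, with overlap. The NEDD8 and UFM1 systems had much smaller ratios. NEDD8 was 1.50 to 2.05 times UBA3, a subunit of its E1, over the 4 libraries. UFM1 was 0.465 and 0.0708 times UFC1, its E2, in the sh-MFAP2 libraries and 0.847 and 0.689 times UFC1 in the controls. The ratio of modifier to E1 mRNA was larger for ISG15 than for NEDD8, and that of modifier to E2 mRNA larger for ISG15 than for UFM1, in every library.

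**Figure D4:**
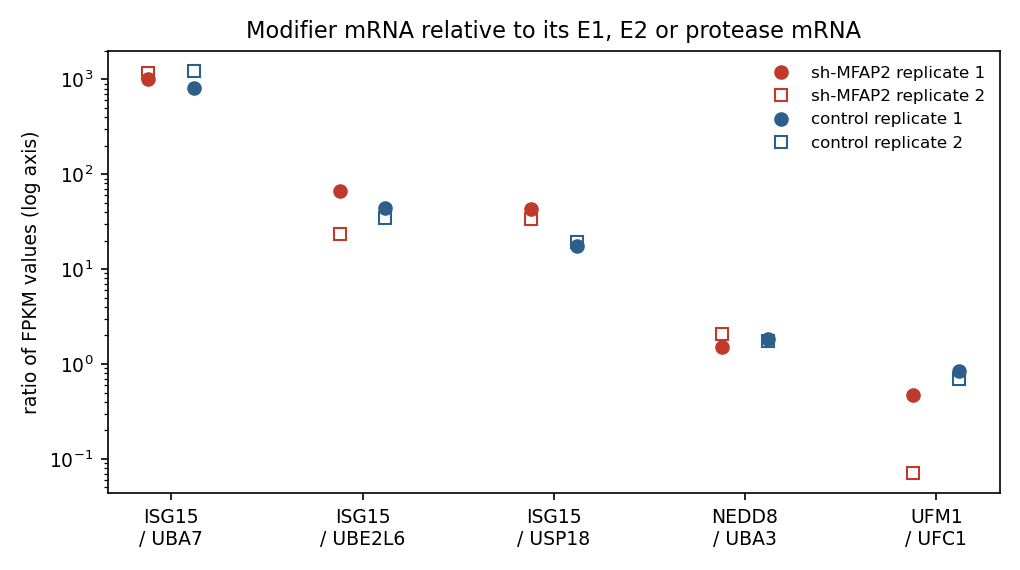
Ratio of the modifier's FPKM to that of its E1, E2 or protease in each library (log axis), with sh-MFAP2 libraries in red, control libraries in blue, filled circles for replicate 1 and open squares for replicate 2. ISG15 over USP18 separated the groups, ISG15 over UBA7 did not, and the NEDD8 and UFM1 ratios stayed below 3.

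The other genes of ISGylation and its close relatives stood near the background of all genes. Of 15 such genes, 13 were tested, 3 of these had a log2 fold change above 0 (UBE2L3, HERC3 and USP21), none was called, none had both sh-MFAP2 libraries above both controls (1 did under each of the other scalings), and 4 had both below, where 31.4% of all genes tested did. Their median log2 fold change was -0.09, beside -0.05 over all genes tested. At an unadjusted p under 0.05, 2 were lower (UBA6 and HERC4), against 8.41% of all genes tested. UBA6, an E1 of ubiquitin, was at 5.08 and 2.73 FPKM against 9.96 and 9.26 FPKM in the controls (log2 fold change -1.16, limma adjusted p = 0.349). HERC4 and USP14 had log2 fold changes of -0.32 and -0.26. ARIH1, a ligase that can also serve ISG15, was at 2.57 and 2.19 FPKM against 2.42 and 2.67 FPKM in the controls.

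Upstream of ISG15, the ligand genes were mostly silent. Of 19 type I and type III interferon genes, 12 were listed at 0 in all libraries, and only IFNL1 and IFNB1 reached a mean of 1 FPKM. IFNL1, a type III interferon, was at 5.83 and 6.28 FPKM in sh-MFAP2 libraries and at 3.49 and 3.98 FPKM in the controls (log2 fold change 0.58, SE 0.115, limma adjusted p = 0.330). IFNB1 was at 1.26 and 1.45 FPKM against 1.08 and 0.951 FPKM (log2 fold change 0.22, limma adjusted p = 0.481). Neither was called, IFNL1 was higher at an unadjusted p under 0.05, and in both the groups did not overlap. Of the ligands below the filter, named after their values were seen, IFNL2 was at 1.12 and 0.919 FPKM against 0.470 and 0.321 FPKM, and IFNL3, a near copy of it, at 1.18 and 0.918 FPKM against 0.447 and 0.537 FPKM. IFNE had 0 in each sh-MFAP2 library and was at 0.619 and 0.579 FPKM in the controls.

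Among receptors and signalling genes, 12 of 14 were tested and none was called, with 2 (IRF7 and IRF9) higher at an unadjusted p under 0.05 by limma, beside 3.89% of all genes tested. Their median log2 fold change was -0.008. Both sh-MFAP2 libraries lay above both controls for 3 of them (IRF7, IRF9 and TYK2) and below for 1 (SOCS3, an inhibitor of cytokine signalling, log2 fold change -0.28), beside 17.5% above and 31.4% below over all genes tested. IRF7, a factor that drives interferon genes, was at 21.3 and 19.7 FPKM against 11.3 and 12.1 FPKM (log2 fold change 0.76, SE 0.111, limma adjusted p = 0.238). IRF9, the DNA-binding part of ISGF3, was at 12.6 and 14.0 FPKM against 8.70 and 8.42 FPKM (log2 fold change 0.58, limma adjusted p = 0.320). STAT2, which also belongs to that complex, was at 3.30 and 5.22 FPKM against 4.16 and 4.74 FPKM, and its groups overlapped. The receptor chain of type III interferons, IFNLR1, stayed below 0.2 FPKM in every library.

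ISG15 was part of a wider set of interferon-stimulated genes with higher values in sh-MFAP2 libraries. Of 51 other genes of this kind, 44 were tested and none was called. Both sh-MFAP2 libraries lay above both controls for 29 (65.9%) and below for 1, BST2, beside 17.5% above and 31.4% below over all genes tested. At an unadjusted p under 0.05 by limma, 18 were higher, beside 3.89% of all genes tested, and 1 was lower. The log2 fold change was below 0 for 8 of the 44, the lowest being SAMD9 (-1.32) and IFIT2 (-1.17), whose groups overlapped. IFIT1 and IFIT3 differed widely within each group, and their groups overlapped. IFIT1 was at 58.9 and 3.43 FPKM against 35.85 and 3.30 FPKM, and IFIT3 at 0.60 and 35.0 FPKM against 9.52 and 0.85 FPKM. The median log2 fold change of the 44 was 0.42, and 1 of the 44 (IFIT5) had a larger one than ISG15, while none had a higher mean level. IFIT5, an RNA-binding protein of antiviral defence, was at 7.85 and 8.76 FPKM against 1.13 and 0.0531 FPKM in the controls (log2 fold change 2.64, limma adjusted p = 0.238). OAS1, a synthase of oligoadenylate that senses double-stranded RNA, was at 20.0 and 26.3 FPKM against 12.6 and 9.48 FPKM (log2 fold change 1.00, limma adjusted p = 0.336). IFI16, a sensor of DNA, was at 4.94 and 4.75 FPKM against 1.83 and 2.17 FPKM (log2 fold change 0.96, limma adjusted p = 0.164). The list was chosen with earlier results of these data known and is no independent evidence of its direction. USP18 and TRIM25, interferon-induced as well, did not share this separation of the groups.

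**Figure D5:**
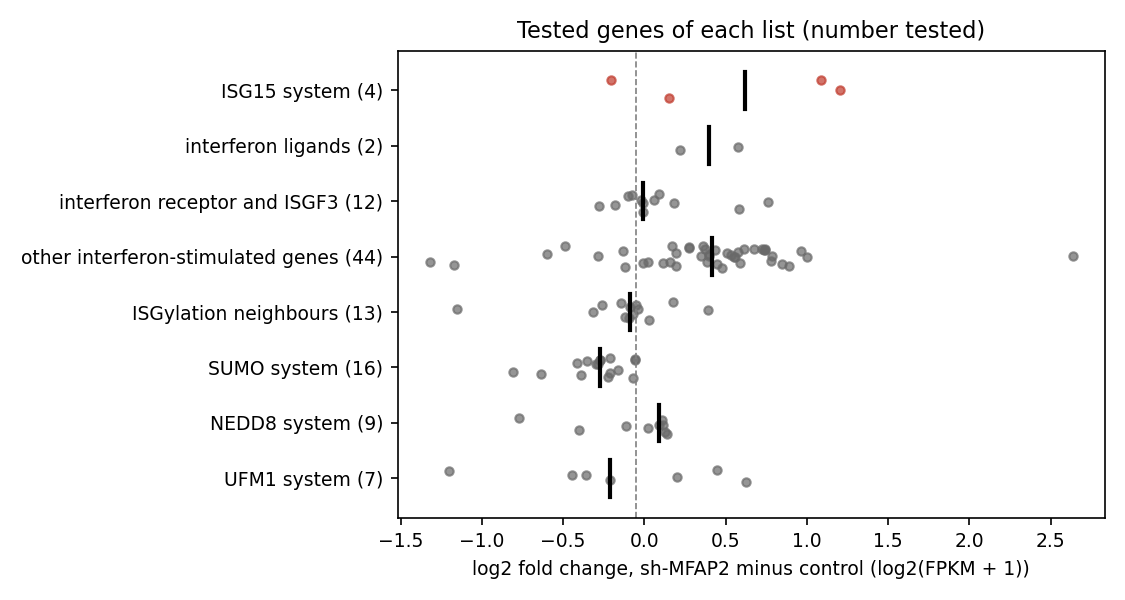
Log2 fold change of every tested gene (points), sh-MFAP2 minus control on log2(FPKM + 1), for the ISG15 system (red) and 7 other lists (grey), with black bars at the list medians and a dashed line at the median of all genes tested (-0.05). The medians of the ISG15 system (0.62) and of the other interferon-stimulated genes (0.42) lay to the right, and that of the SUMO system (-0.27) to the left.

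The parallel systems of ubiquitin-like modifiers were described in the same way. In the SUMO system, 16 of 17 genes were tested, none was called, none had both sh-MFAP2 libraries above both controls and 10 had both below, beside 17.5% above and 31.4% below over all genes tested. Their median log2 fold change was -0.27, and it was -0.21 after quantile normalization. SUMO3 was at 68.3 and 25.1 FPKM against 73.5 and 73.4 FPKM, PIAS3, a SUMO ligase, at 5.69 and 5.78 FPKM against 9.33 and 9.57 FPKM, and SUMO2 at 71.0 and 95.9 FPKM against 111 and 110 FPKM. The NEDD8 system, with 9 genes tested, had a median of 0.09, with both sh-MFAP2 libraries below both controls for UBE2F (log2 fold change -0.77) and DCUN1D1 (-0.40). The UFM1 system, with 7 genes tested, had 3 with both above and 3 with both below, and among them were UFM1 (-1.20), UFC1 (0.63) and CDK5RAP3 (0.45). With so few genes, the NEDD8 and UFM1 counts are not read against those shares, and the same limit holds for the ISG15 system. The UFM1 system had both above for 3 of 7 genes, as the ISG15 system did in the fit without the filter. None of these genes was called. At an unadjusted p under 0.05 by limma, PIAS3 and DCUN1D1 were lower and CDK5RAP3 was higher.

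The genes next to the members on the chromosome were compared to see whether a difference extended beyond the member. HES4, which lies 965 bases from the annotated span of ISG15, was at 5.34 and 6.48 FPKM against 5.22 and 5.63 FPKM in the controls. That span begins at 1001138 with ISG15-203, and ISG15-201 begins further from HES4, at 1013423. AGRN, on the other side at a distance of 5582 bases, was at 29.6 and 19.5 FPKM against 20.9 and 22.2 FPKM. Both overlapped between groups, unlike ISG15 between them. SERPING1, the C1 inhibitor of complement and the neighbour of UBE2L6 at a distance of 29102 bases, was at 1.79 and 1.53 FPKM against 0.864 and 0.616 FPKM, without overlap (log2 fold change 0.62, limma adjusted p = 0.335). TRAIP beside UBA7, PPM1K beside HERC6 and PYURF beside HERC5 had log2 fold changes between 0.05 and 0.06. DGKE (-0.16) and COIL (-0.12) beside TRIM25 had both sh-MFAP2 libraries below both controls. INKA1 (listed as FAM212A) beside UBA7, SMTNL1 beside UBE2L6, and TUBA8 and GGTLC3 beside USP18 were below the filter.

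By distance between centred log2(FPKM + 1) values over the 4 libraries, the tested genes nearest to ISG15 were ZNF134 (0.157), CDC34 (0.159), RNF223 (0.192), ZNF394 (0.196) and PLPP3 (0.217), where 0 would be an equal profile. ZNF134 was at 2.11 and 2.09 FPKM in sh-MFAP2 libraries and at 0.286 and 0.263 FPKM in the controls. CDC34, an E2 of ubiquitin, was at 29.3 and 36.3 FPKM against 15.7 and 13.7 FPKM. RNF223, ZNF394 and PLPP3 had log2 fold changes of 1.38, 1.03 and 1.00. None of the other members was among these 5.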

How the data were processed

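RNA-seq of AGS cells gave 4 libraries, 2 sh-MFAP2 and 2 control, grouped by their labels. The authors deposited a gene table of 47251 rows and a transcript table of 180500 rows with values taken as FPKM, since they are not whole and low values fall on regular steps that scale with length. The submitters' notes name the build hg38, and the aligner and quantifier are not given in the sources used here. Inferred reads follow from these steps (61.1% to 61.6% of low values within 0.05 of a whole step, 10% by chance). Reads were not recovered gene by gene, so no count test was run.

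Genes whose mean reached 1 FPKM were tested on log2(FPKM + 1) in limma 3.58.1 (R 4.3.3; lmFit, eBayes with trend, Benjamini-Hochberg adjustment). The method was tried on simulated data drawn from its own fitted variances, which cannot show how it does on these libraries. The study's methods use a random variance model with the same thresholds. Fold changes on this scale understate those of low genes. Coordinates are from GENCODE 29, which held 92.5% of the gene identifiers. Transcripts were aligned with BLAST 2.17.0. Promoters are from RefSeq. Python 3.11.15, pandas 2.3.3 and matplotlib 3.10.9 were used.

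The members and lists were chosen with earlier results of these data known. Named were all members, the 3 tested genes of each list with the largest change and no overlap, ARIH1, UBE2L3, STAT2, IRF9, adjacent protein-coding genes, the 5 genes nearest to ISG15, and member transcripts with a mean of at least 1 FPKM. UBA7-201, the markers, LYZ, TYK2, IFNLR1, BST2, SAMD9, IFIT1, IFIT2, IFIT3, HERC3, USP21, USP41, IFNL2, IFNL3 and IFNE were named outside this rule, after their values were seen. Alternatives were other filters, pseudocount, scalings, variance prior, replicate block, summed transcripts and leaving out each library. Some results under this rule are not reported here.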

Additional observations from a re-analysis of the deposited data

How the results depend on the processing

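ISG15 stayed higher in sh-MFAP2 libraries under all 12 alternatives, with log2 fold changes of 1.11 to 1.29 and limma adjusted p between 0.0939 and 0.586, and UBE2L6 also kept its direction (0.33 to 1.85). UBA7, which the filters leave out, kept its direction under the 10 alternatives run for it (0.21 to 0.84). None of these alternatives brought any of these 3 genes to a call. Leaving out 1 library at a time moved USP18 from -0.0706 to 0.375 (below 0 without sh-MFAP2 replicate 2, and at -0.00425 without control replicate 2) and TRIM25 from -0.917 to 0.502 (above 0 without sh-MFAP2 replicate 1, and at 0.356 without control replicate 2). The number of members with sh-MFAP2 above control lay between 3 and 5, and was 5 without sh-MFAP2 replicate 1, when a single library has to lie above the controls. The share over the 9873 genes tested, which leaves out genes under the filter, was then 33.6%, beside 17.5% with all libraries. The median log2 fold change of the members lay between 0.128 and 0.885. The other interferon-stimulated genes without overlap and higher in sh-MFAP2 numbered from 21 (of 30 tested, when the mean had to reach 5 FPKM) to 35 (of 51 without the filter, and of 44 without sh-MFAP2 replicate 1), where the share over all genes tested was 18.1%, 16.0% and 33.6%.

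The 27 genes called became 6 without the filter, 9 when the mean had to reach 5 FPKM, and 0 whichever library was left out, where limma found 555 to 2166 genes at an unadjusted p under 0.05. The cause was not tested. With the replicate number as a block, 0 genes were called by limma (722 at an unadjusted p under 0.05). Same-numbered libraries did not deviate together (correlation -0.0572), so that the numbers were not taken as pairs. Under the block the SE of TRIM25 was 0.163 in place of 0.667, and its log2 fold change remained -0.208 (adjusted p = 0.684). Among genes at an unadjusted p under 0.05, 31.6% were higher in sh-MFAP2 libraries, and this was 47.1% after quantile normalization and 42.2% after scaling by median of ratios. The SUMO list had 0 of 16 genes with a log2 fold change above 0, and 3 of 16 after quantile normalization. Depth limits HERC5, HERC6 and MFAP2, which stand on a few reads.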
